A study of Mus musculus with 36 samples.

Results

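The Fc gamma receptor transcripts of bone marrow-derived macrophages (BMDMs) were examined by RNA-seq across genotype, a BMAL1 ligand and an inflammatory stimulus. The members were the 5 rows of the gene count table named Fcgr1, Fcgr3, Fcgr4, Fcgr2b and Fcer1g, of 54532 genes, and all 36 libraries were used. Marrow from female C57BL/6 mice aged 13 to 17 weeks was cultured for 7 days in medium with MCSF. The wild-type (WT) group was Bmal1 flox/flox (n = 3 per treatment) and the knockout (KO) group LysM-Cre;Bmal1 flox/flox (n = 6 per treatment), so every animal carried the floxed Bmal1 alleles and only the KO carried Cre. Cells received DMSO vehicle, 100 µM CCM, 100 nM LPS in DMSO, or 100 nM LPS with 100 µM CCM for 6 h before lysis. CCM is a small molecule that binds a cavity in the PASB domain of the clock transcription factor BMAL1, and LPS is a bacterial cell wall component that activates macrophages through a Toll-like receptor.

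Fc gamma receptors bind the constant part of IgG and let a macrophage recognize antibody-coated particles. Fcgr1 encodes the high-affinity receptor, and Fcgr3 and Fcgr4 encode activating receptors of lower affinity. All of them signal through the ITAM of a shared gamma chain, encoded by Fcer1g, which also brings these receptors to the cell surface. Fcgr2b encodes the inhibitory receptor, whose ITIM recruits phosphatases that dampen ITAM signals, so the balance of Fcgr2b with the others sets how readily immune complexes activate the cell. Fcgr1 and Fcer1g belong to a panel of phagocytosis genes that the study examined in these same samples, so their direction under CCM is not independent evidence.

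Libraries held 13469262 to 28288923 counts over all genes, with a median of 19951421. All 7 macrophage markers, among them Csf1r, Cd14 and Adgre1, were present, with a summed level of 3648 to 8278 CPM (counts per 1000000, after TMM scaling of the library totals). LysM-Cre acts in the myeloid lineage. The transcript of the targeted gene (Arntl, which encodes BMAL1) had group means of 8.55 to 12.3 CPM in WT and 6.51 to 7.46 CPM in KO, the libraries of the genotypes overlapped except with LPS and CCM (11.5 to 12.9 CPM in WT and 3.94 to 9.32 CPM in KO), and it did not pass the test of KO against WT in vehicle or in LPS. The count over the whole gene does not separate the deleted part from the rest. Markers of T cells summed to 8.52 to 33.7 CPM, of NK cells to 0.209 to 3.34 CPM, of mast cells or basophils to 7.71 to 23.6 CPM and of dendritic cells to 600 to 1640 CPM, the last almost all from Itgax, which macrophages also express.

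The 4 libraries of KO replicate 6 stood apart from the other KO libraries in these genes. How far they stood apart over all genes was not computed. Relative to the mean of KO replicates 1 to 5 under the same treatment, replicate 6 had 1.60 to 1.92 times the Fcer1g level, 1.69 to 2.30 times the Fcgr4 level and 1.38 to 1.70 times the Fcgr1 level. Fcgr3 was 1.02 to 1.47 times that mean. Fcgr2b went the other way, at 0.569 to 0.826 times the mean. Fcgr1, Fcgr4 and Fcer1g of replicate 6 were above all 5 other libraries under every treatment, whereas Fcgr3 with CCM (565 CPM, others 539 to 576 CPM) and Fcgr2b with LPS (1021 CPM, others 1007 to 1344 CPM) lay within them. The summed level of the 9 neutrophil markers was 983 to 1025 CPM in replicate 6 and 325 to 882 CPM in the 32 other libraries, with S100a9 the most abundant. The 5 markers of B cells, which express Fcgr2b but not the activating receptors, summed to 5.10 to 10.4 CPM in replicate 6 and to 1.32 to 5.14 CPM elsewhere. The macrophage markers summed to 3648 to 7236 CPM in replicate 6 and to 4712 to 8278 CPM elsewhere. Its libraries with CCM (3648 CPM) and vehicle (4186 CPM) were below all others. The T cell, NK cell, mast cell or basophil and dendritic cell sums overlapped those elsewhere. The part of these markers in the receptor levels was not tested. In bulk RNA, more cells of a type and more RNA per cell cannot be told apart. Member changes in KO are given with and without replicate 6, and the counts over other gene lists in KO include it.

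**Figure D1:**
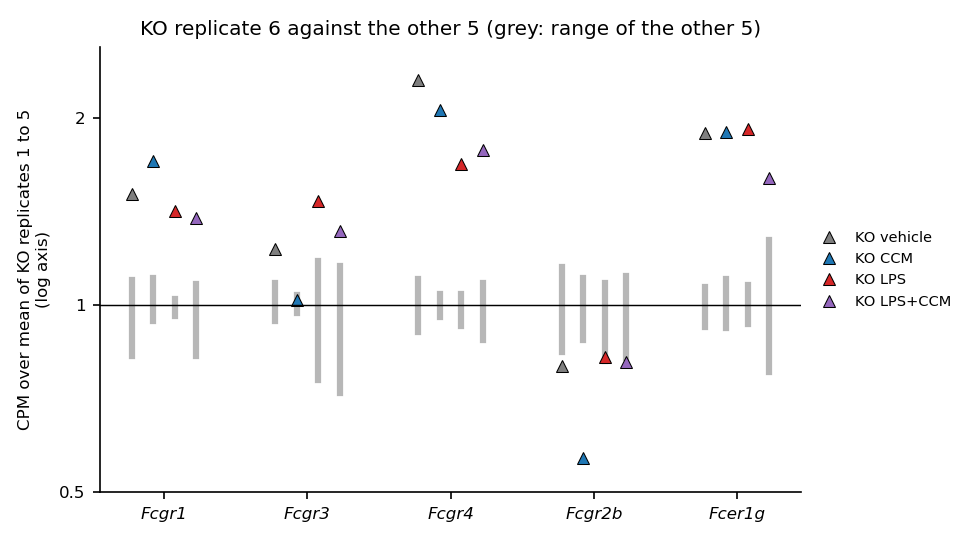
CPM of each member in KO replicate 6 divided by the mean of KO replicates 1 to 5 under the same treatment (triangles, log axis), with grey bars for the range of the other 5 libraries. Fcer1g and Fcgr4 lie above that range under every treatment, at 1.60 to 2.30 times the mean, and Fcgr2b lies at 0.569 to 0.826 times the mean.

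The members occupy 2 loci in the mm10 build. Fcgr1 (ENSMUSG00000015947) lies at chr3:96282909-96293969 on the minus strand. The other 4 lie within 275.7 kb of chromosome 1, with Fcgr2b (ENSMUSG00000026656) at chr1:170958617-170976547 on the minus strand, Fcgr4 (ENSMUSG00000059089) at chr1:171018920-171029761 on the plus strand, Fcgr3 (ENSMUSG00000059498) at chr1:171051174-171064935 on the minus strand and Fcer1g (ENSMUSG00000058715) at chr1:171229572-171234365 on the minus strand. Fcgr2b overlaps the antisense gene Gm38204, which reached at most 1.45 CPM. Fcgr3 overlaps Mir6546 (at most 0.0380 CPM) and Fcgr4 overlaps Gm26110 (at most 0.185 CPM). Whether the counting used strand is not given in the sources used here, so reads of antisense pairs may be mixed. Of the 1733 different 50-base stretches in Fcgr3 transcripts, 166 (9.58%) also occur in Fcgr2b transcripts, and 44 of its 1733 100-base stretches (2.54%) do. At 150 bases Fcgr3 shared 0 of 1733 stretches with any other annotated gene. Reads from shared stretches may be mixed between this pair, and their effect on its values was not measured. Of 5685 such 50-base stretches in Fcgr2b, 395 (6.95%) occur in some other annotated gene. Fcgr1, Fcgr4 and Fcer1g shared 0 such stretches with any other annotated gene at any of these lengths.

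Promoter windows from RefSeq (GRCm38.p6, 250 bases before to 50 bases after the start site) are shown for the receptor genes, because Fcgr1, Fcgr4 and Fcgr2b rose and Fcgr3 fell under LPS although Fcgr2b, Fcgr4 and Fcgr3 lie in 1 cluster. The windows were searched on both strands for 7 motifs. These were the PU box GAGGAA, found in 28.1% of 32544 RefSeq windows, the GAS motif TTCNNNGAA (8.33%), the interferon response core, a repeat of GAAA with any 2 bases between (3.45%), the E-box CACGTG that BMAL1 and CLOCK bind (7.17%), TGACGTCA (1.80%), TGANTCA (7.79%) and the NF-kB consensus (8.49%). Capitals mark matches, and TTCCTC is GAGGAA on the opposite strand.
Fcgr1, chr3:96293920-96294219, minus strand: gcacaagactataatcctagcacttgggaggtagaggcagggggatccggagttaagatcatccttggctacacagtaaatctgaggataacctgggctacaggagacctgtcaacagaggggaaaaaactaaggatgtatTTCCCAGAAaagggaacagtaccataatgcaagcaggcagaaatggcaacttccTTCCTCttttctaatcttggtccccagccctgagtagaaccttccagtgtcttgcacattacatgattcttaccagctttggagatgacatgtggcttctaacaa
Fcgr3, chr1:171059354-171059653, minus strand: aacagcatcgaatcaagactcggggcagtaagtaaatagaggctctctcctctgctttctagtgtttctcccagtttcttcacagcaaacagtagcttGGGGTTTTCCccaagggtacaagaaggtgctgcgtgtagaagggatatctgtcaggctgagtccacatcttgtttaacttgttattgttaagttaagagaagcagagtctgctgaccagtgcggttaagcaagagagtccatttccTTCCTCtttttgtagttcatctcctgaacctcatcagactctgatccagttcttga
Fcgr4, chr1:171018676-171018975, plus strand: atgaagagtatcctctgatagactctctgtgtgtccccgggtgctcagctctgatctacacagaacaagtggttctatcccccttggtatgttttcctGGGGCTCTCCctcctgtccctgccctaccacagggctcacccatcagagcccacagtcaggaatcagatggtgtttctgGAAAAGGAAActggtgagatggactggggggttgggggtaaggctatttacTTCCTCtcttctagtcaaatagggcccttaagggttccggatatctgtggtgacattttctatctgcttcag
Fcgr2b, chr1:170976022-170976321, minus strand: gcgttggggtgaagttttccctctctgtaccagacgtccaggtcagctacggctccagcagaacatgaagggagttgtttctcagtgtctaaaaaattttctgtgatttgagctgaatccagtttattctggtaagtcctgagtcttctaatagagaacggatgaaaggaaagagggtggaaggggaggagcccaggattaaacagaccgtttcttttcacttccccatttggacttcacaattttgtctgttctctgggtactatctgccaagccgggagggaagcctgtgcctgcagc

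The 3 activating receptor windows held a PU box, at position -55 in Fcgr1, -6 in Fcgr3 and -22 in Fcgr4, counted from the start site to the base printed first. Fcgr1 held the GAS letters at -109, and Fcgr4 the interferon core at -73. The NF-kB consensus matched at -152 in both Fcgr3 and Fcgr4. The part of any of these letters in the LPS changes was not tested. Fcgr2b and Fcer1g held 0 of the 7 motifs, and the E-box was in 0 of the 5 windows, which says only that those letters are not in these stretches. The windows of Fcgr3 and Fcgr2b lie wholly inside the annotated gene spans, and those of Fcgr1, Fcgr4 and Fcer1g in part. None of these motifs overlapped another.

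The first comparison asked how LPS changed the receptors in WT macrophages. Of the 5 members, 4 rose and 1 fell at an adjusted p of at most 0.05 by edgeR, among 14501 genes of which 63.0% passed. All 5 also had groups that did not overlap in CPM, as had 68.9% of the genes tested, so passing the test was common here and the members' sizes and directions carry the description.

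Fcgr2b had the largest change. Its levels were 104, 104 and 155 CPM in the vehicle libraries and 1133, 1279 and 1258 CPM with LPS. Every stimulated library was far above every vehicle library. The mean went from 121 ± 29.6 CPM (SD, n = 3) to 1224 ± 79.0 CPM (SD, n = 3), a fold change of 10.1 with a 95% interval of 7.92 to 12.9 (log2 3.34 ± 0.16 SE, adjusted p = 3.60e-08, edgeR). Of the genes tested, 4.19% had a larger absolute log2 change.

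Among the activating receptors, Fcgr1 measured 107, 104 and 87.1 CPM with vehicle and 497, 580 and 634 CPM with LPS. The groups were well apart, with a fold change of 5.76 (95% interval 4.90 to 6.79, adjusted p = 1.40e-08, edgeR). Fcgr4, the least abundant member in CPM, measured 42.0, 37.0 and 38.6 CPM with vehicle and 135, 164 and 174 CPM with LPS. It rose 4.04-fold (95% interval 3.47 to 4.70, adjusted p = 4.63e-08, edgeR).

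Fcgr3 was the member that fell. It measured 527, 474 and 504 CPM with vehicle and 203, 278 and 293 CPM with LPS, and the highest stimulated library was below the lowest vehicle library. The log2 change was -0.95 ± 0.12 (SE), which left 0.517 times the vehicle level (95% interval 0.429 to 0.623, adjusted p = 6.31e-05, edgeR).

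The signalling chain Fcer1g measured 625, 528 and 512 CPM with vehicle and 1254, 1255 and 1225 CPM with LPS. The stimulated libraries lay within 31 CPM of each other. Fcer1g rose 2.25-fold (log2 1.17 ± 0.08 SE, adjusted p = 4.41e-07, edgeR), less than Fcgr1, Fcgr4 and Fcgr2b.

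LPS changed the composition of the libraries. Scaling by library totals alone moved the median log2 change of all genes tested from -0.05 to -0.47 in WT and from -0.05 to -0.44 in KO. Each of the 5 members kept its direction and its call in both genotypes under that scaling, with Fcgr3 at -1.36 and Fcer1g at 0.76 on the log2 scale in WT. Over all 11 alternatives in each genotype, the members kept their direction and call as well. The neutrophil markers summed to 505 to 543 CPM in WT vehicle and 392 to 434 CPM in WT LPS, the dendritic cell markers, mostly Itgax, to 773 to 881 and 1415 to 1486 CPM, the mast cell or basophil markers to 13.5 to 16.2 and 16.95 to 17.8 CPM, and the T cell markers to 24.02 to 28.0 and 16.1 to 19.8 CPM. The macrophage markers summed to 4775 to 5145 and 7243 to 7566 CPM, and the NK cell markers to 1.32 to 2.13 and 0.472 to 0.561 CPM. The part of these markers was not tested. The 5 B cell markers summed to 3.31 to 4.28 CPM with vehicle and 2.16 to 3.31 CPM with LPS, so these markers were low in both.

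**Figure D2:**
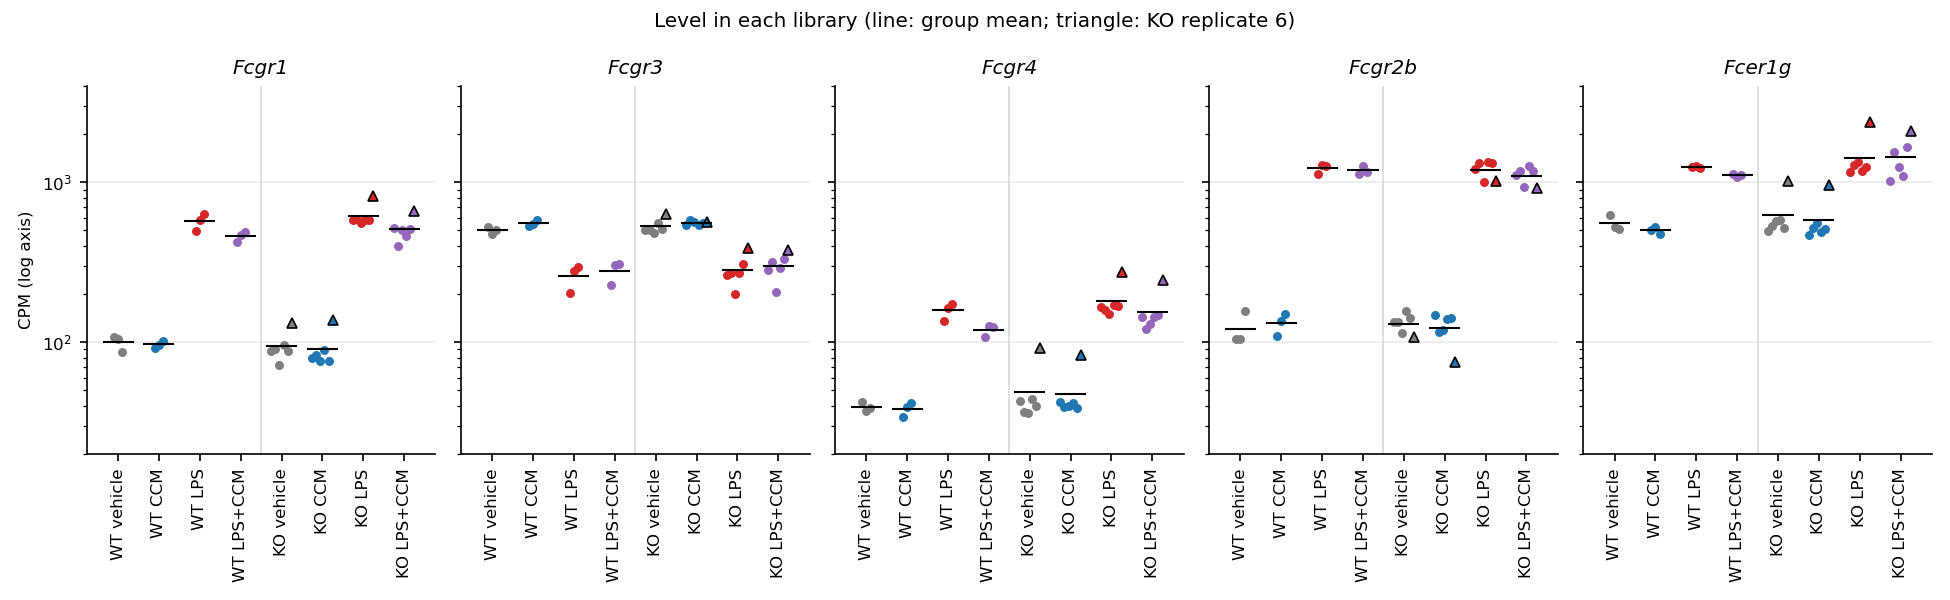
CPM of the 5 members in each of the 36 libraries (points, log axis), by genotype and treatment, with a line at each group mean and triangles for KO replicate 6. With LPS, Fcgr2b goes from a mean of 121 to 1224 CPM in WT, Fcgr1, Fcgr4 and Fcer1g also rise, and Fcgr3 falls from 501 to 258 CPM.

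Because these changes differed in size and sign, the make-up of the receptor transcripts was computed per kb of gene length. The deposited length of Fcgr2b is 5790 bases, while its annotated transcripts run from 462 to 3544 bases. Its per-kb level is therefore understated for any single isoform, by an amount that depends on which isoform is made. The same holds for Fcgr3 (1736 bases, longest transcript 1347) and Fcer1g (874 bases, longest transcript 683). The orders, shares and ratios between genes below depend on these lengths. Per kb, the order in WT vehicle was Fcer1g (635 ± 70.1 CPM per kb), Fcgr3 (289 ± 15.4), Fcgr1 (38.4 ± 4.15), Fcgr4 (31.2 ± 2.04) and Fcgr2b (20.9 ± 5.11), with SD and n = 3 throughout. The lowest Fcgr1 library (33.7 CPM per kb) was just above the highest Fcgr4 library (33.5 CPM per kb). With LPS the order was Fcer1g (1424 ± 19.6 CPM per kb), Fcgr1 (220 ± 26.7), Fcgr2b (211 ± 13.6), Fcgr3 (149 ± 27.7) and Fcgr4 (126 ± 16.1). Of these neighbours, Fcgr1 with Fcgr2b and Fcgr3 with Fcgr4 overlapped between libraries.

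Fcgr3 made up 76.1 ± 0.451% of the summed per-kb level of the 4 receptors in WT vehicle and 20.9 ± 1.58% with LPS (SD, n = 3). The share of Fcgr2b went from 5.52 ± 1.33% to 30.1 ± 1.87%. That of Fcgr1 went from 10.1 ± 1.19% to 31.2 ± 0.687%, and that of Fcgr4 from 8.23 ± 0.193% to 17.8 ± 0.217%. No vehicle library overlapped an LPS library in any of these shares.

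The sum of the 3 activating receptors over Fcgr2b was 21.0, 19.0 and 13.2 in the WT vehicle libraries and 2.13, 2.33 and 2.54 with LPS, on the per-kb scale. After TMM scaling the activating sum itself went from 358 ± 18.2 to 494 ± 70.1 CPM per kb, beside the much larger rise of Fcgr2b. TMM factors were 1.15 to 1.19 in WT vehicle and 0.885 to 0.887 in WT LPS, which lowers vehicle CPM and raises LPS CPM. The rise of the sum therefore depends on that scaling, and the sum was not computed from library totals alone. The ratios within a library do not depend on it. The ratio of Fcgr3 alone to Fcgr2b went from 14.3 ± 3.12 to 0.6998 ± 0.0920. The Fcer1g level over the activating sum went from 1.77 ± 0.119 to 2.92 ± 0.469. These ratios are given without a test.

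**Figure D3:**
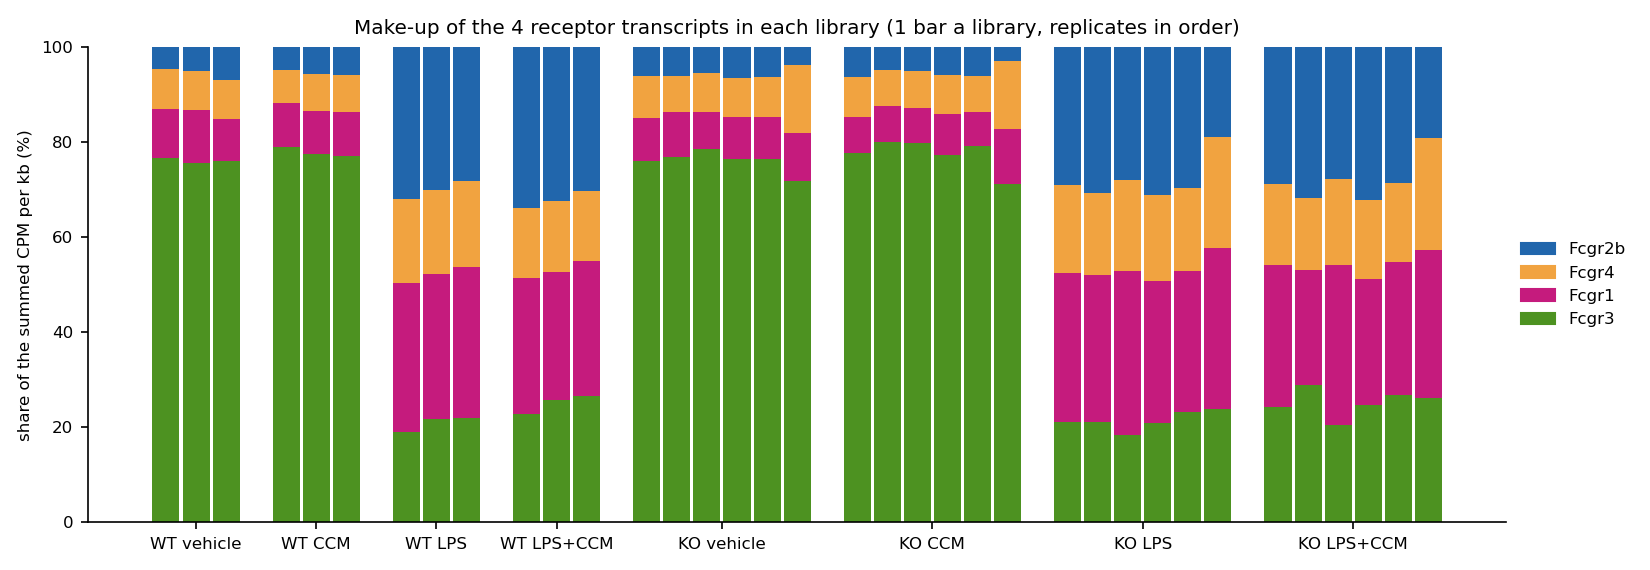
Share of each receptor gene in the summed CPM per kb of the 4 receptor genes, 1 bar for each of the 36 libraries in replicate order within a group. Fcgr3 fills 75.7 to 76.6% of the WT vehicle bars and 19.1 to 21.9% of the WT LPS bars, and the last bar of each KO group, replicate 6, has the smallest Fcgr2b share of its group.

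The same comparison in KO macrophages gave 4 members higher and 1 lower by edgeR, among 13648 genes of which 47.1% passed. Groups did not overlap for any of the 5, nor for 30.6% of the genes tested. Fcgr2b measured 108 to 156 CPM (median 133) with vehicle and 1007 to 1344 CPM (median 1259) with LPS, a fold change of 9.11 (log2 3.19, 95% interval 2.92 to 3.46, adjusted p = 3.56e-10, edgeR). Fcgr1 measured 72.1 to 131 CPM (median 89.6) and 555 to 819 CPM (median 583). The gap between the groups was wide, and the fold change was 6.51 (95% interval 5.07 to 8.35, adjusted p = 2.12e-08, edgeR).

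Fcgr4 measured 36.2 to 91.9 CPM (median 41.5) with vehicle and 151 to 275 CPM (median 168) with LPS in KO, a fold change of 3.71 (95% interval 2.52 to 5.47, adjusted p = 4.32e-05, edgeR). Fcer1g measured 498 to 1019 CPM (median 552) and 1151 to 2369 CPM (median 1256), a fold change of 2.29 (95% interval 1.60 to 3.27, adjusted p = 9.84e-04, edgeR). The highest vehicle library of both genes was replicate 6. Fcgr3 again fell, from 483 to 630 CPM (median 508) with vehicle to 199 to 386 CPM (median 270) with LPS, a ratio of 0.530 (95% interval 0.422 to 0.666, adjusted p = 2.23e-04, edgeR).

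Without KO replicate 6, the log2 changes were 3.18 for Fcgr2b, 2.72 for Fcgr1, 2.01 for Fcgr4, 1.18 for Fcer1g and -0.98 for Fcgr3, and all 5 were past the threshold. With replicate number as a block, which the KO libraries allowed, 9774 genes passed in place of 6433 and the 5 members were called in the same directions. The spread narrowed for Fcer1g, whose vehicle level went from 619 ± 198 CPM (SD, n = 6) to 539 ± 34.7 CPM (SD, n = 5). Fcgr4 with vehicle went from 48.6 ± 21.4 to 40.0 ± 3.58 CPM. The activating sum over Fcgr2b per kb was 14.6 to 26.2 (median 15.6) with vehicle and 2.22 to 4.29 (median 2.41) with LPS, and replicate 6 was the highest library in both groups.

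Whether genotype itself changed the receptors was tested in vehicle and in LPS. In vehicle, edgeR called 0 of the 5 members and 0% of 14385 genes, 118 genes had an unadjusted p under 0.05, and DESeq2 called 1 gene, which was no member. The log2 differences of KO from WT were -0.06 for Fcgr1 (95% interval -0.46 to 0.35), 0.10 for Fcgr3 (-0.17 to 0.37), 0.33 for Fcgr4 (-0.35 to 1.01), 0.12 for Fcgr2b (-0.26 to 0.50) and 0.18 for Fcer1g (-0.36 to 0.72). These intervals leave room for sizeable differences in Fcgr4 and Fcer1g. Without KO vehicle replicate 6 the 2 were 0.03 and -0.04. No member had an unadjusted p under 0.05.

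With LPS, edgeR again called 0 members and 0% of 13794 genes between the genotypes, with 105 genes at an unadjusted p under 0.05 and 1 gene, no member, called by DESeq2. The log2 differences of KO from WT ranged from -0.03 for Fcgr2b (95% interval -0.31 to 0.26) to 0.20 for Fcgr4 (-0.23 to 0.64). Without KO LPS replicate 6, they ranged from -0.01 for Fcer1g to 0.05 for Fcgr4. The genotype by LPS interaction, which tests whether the LPS responses differ, called 0 members and 0% of 15093 genes by edgeR (112 genes with an unadjusted p under 0.05, and 0 called by DESeq2). Its estimates ran from -0.13 for Fcgr2b (95% interval -0.57 to 0.30) to 0.20 for Fcgr1 (-0.31 to 0.71), and without KO replicate 6 from -0.16 for Fcgr2b to 0.19 for Fcgr1. A difference in LPS response was therefore not detected at this spread.

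CCM without LPS was compared with vehicle to ask whether the ligand alone changed the receptors. In WT, edgeR called 0 of the 5 members, where 0.0570% of 14024 genes passed (8 genes). DESeq2 also called 0 members, where it called 247 of 10261 genes. Fcgr3 measured 533, 549 and 577 CPM with CCM against 474 to 527 CPM with vehicle. These groups did not overlap, as was so for 16.4% of genes, and the log2 change was 0.13 with a 95% interval of -0.01 to 0.26 (unadjusted p = 0.0617, adjusted p = 0.5261 by edgeR). Fcer1g measured 502, 528 and 475 CPM with CCM and overlapped its vehicle group (log2 -0.16, 95% interval -0.33 to 0.01). Fcgr1, at -0.05 (95% interval -0.23 to 0.14), and Fcgr4, at -0.05 (-0.25 to 0.15), lay near 0. Fcgr2b was the least certain, at 0.10 (-0.28 to 0.48).

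In KO, CCM alone gave 0 members and 0% of 13799 genes by edgeR, with 333 genes at an unadjusted p under 0.05 and 24 genes called by DESeq2, none of them a member. The log2 changes ran from -0.08 for Fcgr2b (95% interval -0.42 to 0.25) to 0.07 for Fcgr3 (-0.12 to 0.26). In all 5 the CCM and vehicle libraries overlapped. Fcgr2b in KO replicate 6 was the lowest library of its kind, at 75.4 CPM with CCM against 116 to 147 CPM in the other 5. Blocked by replicate number, 429 genes and 0 members passed. Without replicate 6 the log2 changes ran from -0.12 for Fcgr1 to 0.11 for Fcgr3.

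CCM was then compared within LPS-treated cells. In WT, Fcgr1, Fcgr4 and Fcer1g fell with CCM, and Fcgr3 and Fcgr2b did not pass the threshold. The 3 called members are the high-affinity receptor, an activating receptor and their shared chain, and 11.9% of 13579 genes passed. Fcgr1 and Fcer1g are in the phagocytosis panel that the study examined in these same samples. The same 3 had groups that did not overlap, as had 30.5% of genes. This comparison shares its LPS libraries with the comparison of LPS with vehicle, so the values of the 2 comparisons are not independent.

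Fcgr4 measured 135, 164 and 174 CPM with LPS and 107, 127 and 124 CPM with LPS and CCM. Each CCM library was below each LPS library, and the log2 change was -0.40 ± 0.09 (SE), or 0.756 times (95% interval 0.656 to 0.871, adjusted p = 0.0182, edgeR). Fcgr1 measured 497, 580 and 634 CPM with LPS and 425, 467 and 485 CPM with CCM added. Here the groups were separated by little, between 485 and 497 CPM, and the log2 change was -0.31 ± 0.08 (SE), or 0.806 times (95% interval 0.7104 to 0.914, adjusted p = 0.0338, edgeR).

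Fcer1g had the smallest change of the 3 and the tightest groups. It measured 1254, 1255 and 1225 CPM with LPS and 1119, 1079 and 1111 CPM with CCM added, a log2 change of -0.17 ± 0.04 (SE), or 0.887 times (95% interval 0.835 to 0.943, adjusted p = 0.0181, edgeR).

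The other 2 members overlapped between the groups. Fcgr2b measured 1133, 1279 and 1258 CPM with LPS and 1132, 1266 and 1163 CPM with CCM added (log2 -0.04, 95% interval -0.17 to 0.09, adjusted p = 0.711, edgeR). Fcgr3 measured 203, 278 and 293 CPM and 228, 302 and 307 CPM. Libraries of 1 number deviated together here. A fit blocked by that number called Fcgr3 higher (log2 0.12, adjusted p = 0.0207, edgeR), where the unblocked adjusted p was 0.662. The blocked fit called Fcgr1, Fcgr4 and Fcer1g lower too, which made 4 members, among 3220 genes called in place of 1621.

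The 3 calls depended on single libraries. Without WT LPS replicate 2, 0 of the 5 members were called, with adjusted p of 0.112 for Fcgr1, 0.0759 for Fcgr4 and 0.0803 for Fcer1g. Without WT LPS replicate 3 only Fcer1g was called, and without WT LPS+CCM replicate 2 only Fcgr4. Fcer1g also lost its call without WT LPS replicate 1 (adjusted p = 0.0512), and Fcgr1 without WT LPS+CCM replicate 1 (adjusted p = 0.0898). Scaled by library totals alone, only Fcgr4 was called, with log2 changes of -0.32 for Fcgr4, -0.23 for Fcgr1 and -0.09 for Fcer1g. All 3 kept a negative log2 change in each of the 11 alternatives, with ranges of -0.40 to -0.23 for Fcgr1, -0.50 to -0.32 for Fcgr4 and -0.19 to -0.09 for Fcer1g. DESeq2 called the same 3, among 1557 of 11560 genes. The neutrophil markers summed to 392 to 434 CPM with LPS and 332 to 399 CPM with LPS and CCM, and the mast cell or basophil markers to 16.95 to 17.8 CPM and 7.97 to 19.8 CPM. The dendritic cell markers summed to 1415 to 1486 CPM with LPS and 1288 to 1334 CPM with CCM added, and the macrophage markers to 7243 to 7566 CPM and 7617 to 7909 CPM, without overlap in either. The T cell, B cell and NK cell sums overlapped. The part of these markers was not tested.

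The make-up of the receptor transcripts with LPS and CCM followed from these values. The share of Fcgr4 in the per-kb sum was 17.8 ± 0.217% with LPS and 14.9 ± 0.111% with CCM added (SD, n = 3). Fcgr1 went from 30.5 to 31.8% to 26.7 to 28.5%, and Fcgr3 from 19.1 to 21.9% to 22.8 to 26.7%. For these receptors the libraries with and without CCM did not overlap, whereas the Fcgr2b shares (28.2 to 32.0% and 30.3 to 33.9%) did. The ratio of Fcgr4 to Fcgr3 was 0.852 ± 0.0585 with LPS and 0.595 ± 0.0478 with CCM added (SD, n = 3), both above the vehicle ratio of 0.108 ± 0.00208.

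**Figure D4:**
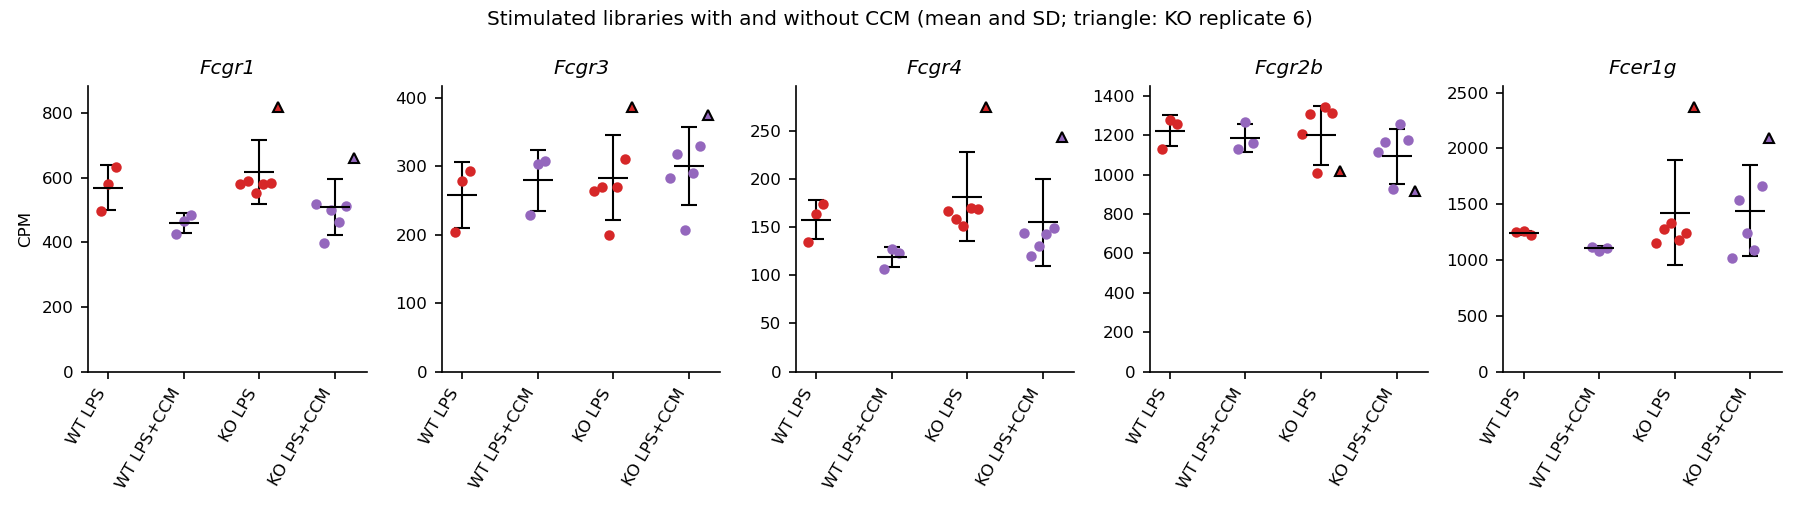
CPM of the 5 members in the stimulated libraries without and with CCM, in WT and KO (points, axes from 0, mean and SD as black lines, triangles for KO replicate 6). In WT, each library with CCM is below each library without it for Fcgr1, Fcgr4 and Fcer1g, and in KO the libraries overlap for all 5 members.

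In KO macrophages treated with LPS, CCM gave 0 called members by edgeR, where 0.112% of 13386 genes passed (15 genes). DESeq2 also called 0 members, where it called 180 of 13868 genes. Fcgr1 measured 555 to 819 CPM (median 583) with LPS and 397 to 662 CPM (median 508) with CCM added. The groups overlapped, and the log2 change was -0.30 with a 95% interval of -0.61 to 0.01 (unadjusted p = 0.0592, adjusted p = 0.655, edgeR). Fcgr4 measured 151 to 275 CPM (median 168) and 120 to 244 CPM (median 143), a log2 change of -0.25 (95% interval -0.67 to 0.18, adjusted p = 0.840, edgeR).

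The estimates for these 2 receptors were thus near those of WT, with wider intervals. Fcer1g was at -0.00 (95% interval -0.49 to 0.48), Fcgr2b at -0.15 (-0.41 to 0.11) and Fcgr3 at 0.06 (-0.30 to 0.43) on the log2 scale. Without KO replicate 6, Fcgr1 was at -0.27 (adjusted p = 0.165, edgeR), Fcgr4 at -0.25 (adjusted p = 0.178, edgeR) Fcer1g at 0.08, Fcgr2b at -0.13 and Fcgr3 at 0.12. KO Fcer1g with LPS and CCM also spread more than the other groups, at 1022 to 1666 CPM in the 5 libraries without replicate 6. Same-numbered libraries did not all deviate together here (r from -0.0563 to 0.719). The fits above were not blocked, as in every main comparison. A fit blocked by number, which called 777 of 13386 genes, called Fcgr1 lower (adjusted p = 0.0486, edgeR), with Fcgr4 at 0.0538. Both were lower with CCM in all 6 same-numbered pairs. The share of all genes with this pattern was not computed, and the numbers did not pair every library, so no conclusion is drawn from it.

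Whether CCM acted differently in the 2 genotypes was tested by the genotype by CCM interaction within LPS. It called 0 members and 0% of 14546 genes by edgeR, with 72 genes at an unadjusted p under 0.05 and 0 called by DESeq2. The estimates, KO minus WT on the log2 scale, were 0.03 for Fcgr1 (95% interval -0.44 to 0.50), 0.17 for Fcgr4 (-0.47 to 0.82), 0.19 for Fcer1g (-0.52 to 0.89), -0.03 for Fcgr3 (-0.63 to 0.56) and -0.09 for Fcgr2b (-0.47 to 0.28). Without KO replicate 6 they ran from -0.08 for Fcgr2b to 0.27 for Fcer1g. A fall that passed the test in WT and not in KO was therefore not shown to differ between the genotypes.

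The LPS by CCM interaction tested whether the effect of CCM depended on LPS. In WT it called 0 members, where 2.09% of 14747 genes passed, and 1 member had an unadjusted p under 0.05. That member was Fcgr4, at -0.37 (95% interval -0.67 to -0.07, unadjusted p = 0.0205, adjusted p = 0.238, edgeR). Fcgr1 was at -0.28 (-0.56 to 0.00, adjusted p = 0.361, edgeR), and Fcer1g was at -0.03 (-0.23 to 0.18), from a log2 change with CCM of -0.16 in vehicle and -0.17 in LPS. In KO the interaction called 0 members, where 0.00685% of 14588 genes passed (1 gene). DESeq2 called 0 members in either genotype, where it called 696 of 7875 genes in WT and 12 of 14628 in KO. The edgeR estimates of the interaction in KO ran from -0.22 for Fcgr1 (95% interval -0.70 to 0.27) to 0.09 for Fcer1g (-0.60 to 0.79). Without replicate 6 they ran from -0.25 for Fcgr4 to 0.17 for Fcer1g. Over all comparisons in which edgeR called 0 members, Fcgr4 in the WT interaction was the only member result with an unadjusted p under 0.05.

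**Figure D5:**
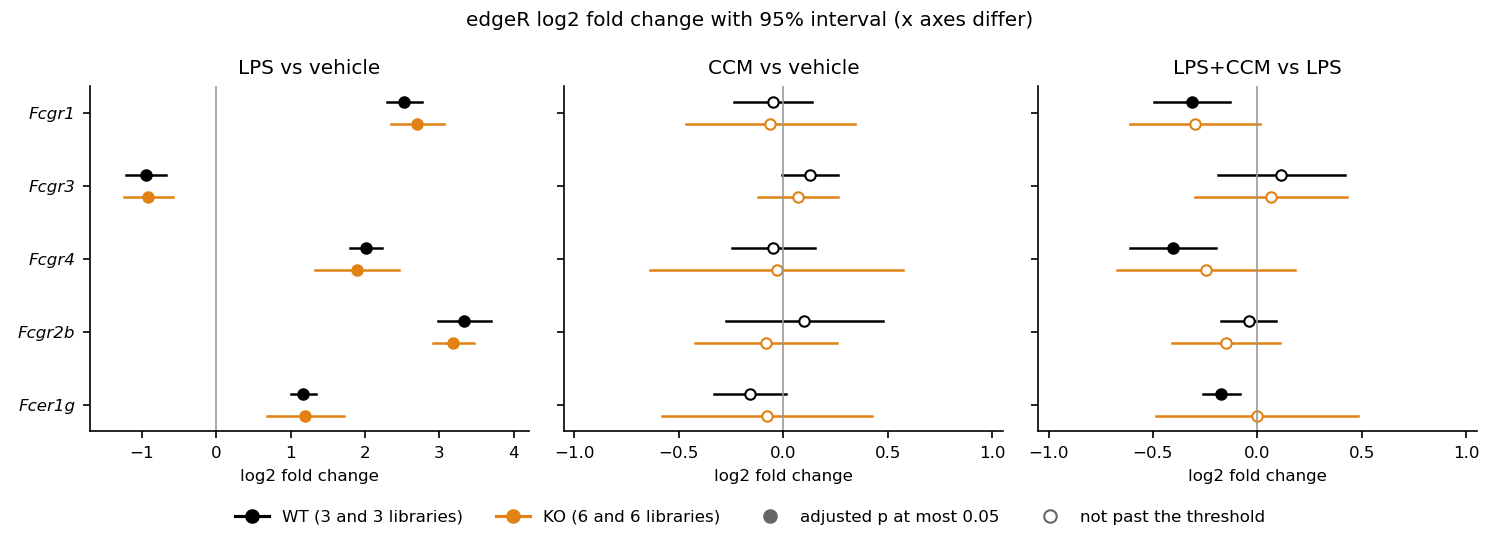
Log2 fold change of each member (points) with its 95% interval (lines) by edgeR, for WT in black and KO in orange, with filled points at an adjusted p of at most 0.05. LPS changed all 5 in both genotypes, CCM alone changed 0, and with LPS the intervals for Fcgr1, Fcgr4 and Fcer1g lie below 0 in WT (-0.31, -0.40 and -0.17) while those in KO cross 0.

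The genes that work with the receptors were followed in 6 lists. Their counts stand beside those of all genes, of which 4441 rose and 4698 fell among 14501 with LPS in WT (63.0% called), 3060 and 3373 among 13648 in KO (47.1%), and 564 and 1057 among 13579 with CCM added to LPS in WT (11.9%), so many calls in a list are ordinary under LPS. Of 15 genes that carry activating signals from ITAMs, 12 rose, 2 fell and 1 did not pass with LPS in WT, with a median log2 change of 1.17 against -0.05 over all genes. Lcp2, the adaptor SLP-76, went from 43.2 to 435 CPM (log2 3.34). The 2 that fell were Lat2, an adaptor, from 116 to 40.4 CPM (-1.51), and Vav3, a nucleotide exchange factor, from 50.9 to 23.6 CPM (-1.10). In KO 10 rose, 2 fell and 3 did not pass. With CCM added to LPS in WT, 2 fell, among them Lcp2 (-0.25, adjusted p = 0.00769, edgeR), and 13 of the 15 did not pass. With CCM alone 0 of 15 passed in either genotype, where 0.0570% of all genes passed in WT and 0% in KO.

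Of 8 genes that act downstream of ITIMs or hold back ITAM kinases, 6 rose and 2 fell with LPS in WT. The phosphatase Ptpn6 (SHP-1) went from 229 to 660 CPM (log2 1.53). In contrast, Inpp5d (SHIP1), the lipid phosphatase that Fcgr2b mainly recruits, fell from 254 to 118 CPM (-1.10) in WT and from 250 to 114 CPM (-1.15) in KO while Fcgr2b rose. In KO 2 rose, 1 fell and 5 did not pass. With CCM added to LPS in WT, Inpp5d rose (0.27, adjusted p = 0.0120, edgeR), and the other 7 did not pass.

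Among 10 other Fc receptors and IgG-handling genes, 7 were tested with LPS in WT, of which 1 rose and 3 fell. Trim21, the cytosolic antibody receptor, went from 12.6 to 161 CPM (log2 3.68), and Fcgrt, the neonatal Fc receptor that recycles IgG, from 58.0 to 27.0 CPM (-1.09). In KO 6 were tested, 1 rose and 3 fell. Under LPS with CCM in WT, Trim21 fell to 95.7 CPM (-0.75, adjusted p = 9.73e-05, edgeR), 2 of 6 fell and 0 rose. The other was Ms4a2, the beta chain of the IgE receptor of mast cells, from 2.54 to 0.893 CPM (-1.49), a low level named only to complete the count. The Trim21 LPS by CCM interaction passed too (-0.81, adjusted p = 0.00326, edgeR).

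Of 10 adaptors and partners of the gamma chain or of its relative Tyrobp, 9 were tested with LPS in WT, with 5 higher and 3 lower. Clec4e (Mincle), a lectin that signals through Fcer1g, went from 10.98 to 2889 CPM (log2 8.03), while Clec7a (Dectin-1), which carries its own ITAM-like motif, went from 945 to 354 CPM (-1.41). Cd247, the zeta chain, went from 0.196 to 14.3 CPM. In KO 4 rose and 2 fell. With CCM added to LPS in WT, 1 of 9 rose and 2 fell. Clec4n (Dectin-2) went from 44.8 to 68.2 CPM (0.61) Clec4e to 2443 CPM (-0.24) and Cd247 to 9.38 CPM (-0.60). With CCM alone in WT, 1 of 8 passed, where 0.0570% of 14024 genes did. It was Clec4d, which rose from 565 to 830 CPM (0.54, adjusted p = 0.0434, edgeR).

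Of 8 further ITIM receptors, 4 rose and 3 fell with LPS in WT, in both directions. Pirb went from 211 to 778 CPM (log2 1.89) and Siglece from 1.56 to 35.4 CPM (4.52), whereas Cd300a went from 230 to 28.2 CPM (-3.02). In KO 3 rose and 2 fell. With CCM added to LPS in WT, 3 rose and 0 fell, among them Cd300a (0.50, adjusted p = 0.00918, edgeR) and Clec4a2 (0.41, adjusted p = 0.00173, edgeR).

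Of 6 transcription factors known to control Fc receptor genes, 5 rose and 0 fell with LPS in both genotypes. Irf1 went from 25.4 to 243 CPM (log2 3.26) in WT. With CCM added, 2 of the 6 fell, among them Irf1, to 137 CPM (-0.82, adjusted p = 4.01e-04, edgeR), and 4 did not pass. Only Irf1 of the 6 passed the LPS by CCM interaction (-0.60, adjusted p = 0.0310, edgeR). In that interaction in WT, 0 of 15 activating, 1 of 8 inhibitory, 1 of 6 IgG-handling, 1 of 9 adaptor and 2 of 8 ITIM genes also passed. Over all genes, 2.09% of 14747 passed it. In KO, 0 genes of these 6 lists passed for CCM alone, for CCM under LPS or for the interaction, and 0 passed between the genotypes. Almost no gene of any kind passed these tests. In KO the shares over all genes were 0% of 13799, 0.112% of 13386 and 0.00685% of 14588. Between the genotypes they were 0% of 14385 in vehicle and 0% of 13794 in LPS. These counts therefore say little about the lists. With CCM under LPS, the log2 changes in KO were -0.67 for Irf1 and -0.64 for Trim21, against -0.82 and -0.75 in WT. For Inpp5d the change was 0.07 in KO against 0.27 in WT.

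Neighbouring genes passed at about the rate of all genes under LPS. Within 100 kb of a chromosome 1 member, 18 of 31 other annotated genes were tested with LPS in WT, with 5 higher, 5 lower and a median log2 change of -0.00, where 63.0% of all genes passed. Fcrlb, an Fc receptor-like gene, rose from 0.913 to 12.1 CPM (3.73) and Adamts4, a protease, from 2.11 to 26.0 CPM (3.56), while Pcp4l1 fell from 38.8 to 6.85 CPM (-2.49). Within 100 kb of Fcgr1, 5 of 30 were tested, 0 rose and 3 fell, among them Bola1 (-1.06) and Hist2h2be (-1.72). In KO, where 47.1% of all genes passed, the counts were 4 higher and 4 lower of 16 on chromosome 1, and 0 higher and 2 lower of 5 near Fcgr1. With CCM added to LPS in WT, 1 of 17 passed on chromosome 1, Adamts4 (-0.51), and 0 of 5 near Fcgr1.

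The genes whose log2 CPM followed each member most closely over the 36 libraries were listed among 11177 genes, by Pearson r as a description. The libraries share LPS treatment, which sets most of this variation. Fcgr1 was nearest to Oas1a (0.995), Xaf1 (0.994) and Parp10 (0.994), all interferon-induced genes. Fcgr4 was nearest to Gsdmd (0.992), Lrrc25 (0.990) and Tbc1d13 (0.989). Fcgr2b was nearest to Cd38 (0.995), Socs3 (0.994) and Ms4a6d (0.994). Fcer1g was nearest to Psme1 (0.993), Chmp4b (0.992) and Psmb8 (0.992), of which Psme1 and Psmb8 encode inducible proteasome components. Fcgr3 was nearest to Trim47 (0.981), Id3 (0.973) and Cenpa (0.971).

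Members also varied together within groups, after each group mean was subtracted. Over the 36 libraries r was 0.923 for Fcgr1 with Fcgr4, 0.8291 for Fcgr4 with Fcer1g and -0.637 for Fcgr2b with Fcer1g. Without the 4 libraries of KO replicate 6 (n = 32), these were 0.752, 0.171 and -0.294. Only the first of these pairs therefore stayed close once replicate 6 was left out, and the link of Fcer1g with Fcgr4 rested on that replicate. Fcgr3 with Fcgr2b went the other way, from 0.0745 to 0.495. Cultures under the 4 treatments may share an animal, so the libraries are not independent points.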

How the data were processed

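Female BMDM cultures were profiled by RNA-seq in 36 libraries. The authors isolated mRNA on poly(T) beads, sequenced paired ends, trimmed with fastp, aligned to mm10 with HISAT2 2.0.5 and counted per gene with featureCounts 1.5.0-p3, per the submitters' processing notes, and deposited whole-number counts with gene coordinates and lengths. Whether strand was used is not given in the sources used here. The analysis left out 0 columns of per-sample values. Groups came from the sample labels.

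Only the groups being compared entered a fit, made in edgeR 4.0.16 (limma 3.58.1, R 4.3.3) with filterByExpr, TMM, glmQLFit and glmQLFTest, two-sided, Benjamini-Hochberg adjustment over all genes tested, threshold 0.05. Intervals of changes are 95% intervals of that fit. The interactions used the groups they name in 1 model. CPM used TMM-scaled totals, and log2 CPM a prior count of 2. Scripts were tested on simulated data with known changes. The study's methods name DESeq2, which was run here (1.42.0) as an alternative, beside RLE factors, no filter, replicate blocks and left-out libraries, and, added after the data were seen, library totals alone and levels without KO replicate 6. Promoter searches and figures used Python 3.11.15 and matplotlib 3.10.9.

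The text names the 5 members, the 3 genes nearest each by Pearson r (average log2 CPM of at least 1), at most 2 called genes per direction, list and comparison, and called genes within 100 kb. Some genes that this rule names are not reported here. Members and lists were chosen with earlier results of these data known. Same-numbered libraries were taken as paired where every correlation of their deviations passed 0.1. That held for LPS in KO (0.245 to 0.762), CCM in KO (0.259 to 0.795) and CCM under LPS in WT (0.122 to 0.283), from the data and not the labels. The main fits had no replicate block in any comparison, because the study's methods name none, and blocked fits were alternatives. No 2 libraries of a group were alike within sampling noise, with a lowest chi-square per degree of freedom of 4.08 over 72 pairs. The labels do not say that replicates are separate animals, so p-values measure the spread between these samples. Lowest counts of a member in a library were 740 to 8925, so counting error was small beside that spread.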

Additional observations from a re-analysis of the deposited data

Results flagged for a closer look

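Of 20 groups of 6 KO libraries (5 members under 4 treatments), 9 held 1 library whose gap to the nearest other was large against the range of the group, where chance gives about 1 in 20 groups. In all 9 that library was replicate 6, at the high end. For Fcgr4 it was flagged under every treatment, at 91.9 CPM with vehicle (nearest other 44.1 CPM), 82.7 CPM with CCM (41.9 CPM), 275 CPM with LPS (169.8 CPM) and 244 CPM with LPS and CCM (149 CPM). For Fcer1g it was at 1019 CPM with vehicle (577 CPM), 963 CPM with CCM (559 CPM) and 2369 CPM with LPS (1332 CPM). For Fcgr1 it was at 137 CPM with CCM (89.0 CPM) and 819 CPM with LPS (591 CPM). The flags rest on TMM-scaled CPM, and the TMM factor of replicate 6 was the lowest of each KO group, which raises its CPM. Libraries of replicate 6 may share an animal, so the 9 flags are not independent. The share of all genes flagged in this way was not computed, so the flags are not shown to be particular to these members. The levels without it stand beside the KO results, and 0 member interactions passed their test.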

How the results depend on the processing

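Of 740 values of the 5 members under alternatives in 12 comparisons, including 90 fits with a library or replicate left out, 684 kept their direction and side of the threshold, 11 lost their call, 3 gained one and 42 changed sign without being called under either setting. The cause of these changes was not tested. The LPS changes kept direction and call in both genotypes. For CCM under LPS in WT, library totals alone left 1 member called, and leaving out 1 library gave 0 to 3. In KO, where the numbers did not pair every library, the replicate block called 1 member (Fcgr1, adjusted p = 0.0486 by edgeR, with Fcgr4 at 0.0538) among 777 genes. There Fcgr1, Fcgr4 and Fcgr2b were lower with CCM in 6 of 6 same-numbered pairs, a pattern not counted over all genes. With no filter, the LPS by CCM interaction in WT called 1 member (Fcgr4, log2 -0.35, adjusted p = 0.0324 by edgeR). Besides Fcgr1 in KO and Fcgr3 in WT for CCM under LPS, the block changed no other member's call. Under library totals alone, log2 values that changed sign were Fcgr2b 0.038 (CCM under LPS, WT), Fcer1g 0.030 (CCM under LPS, KO), Fcgr3 0.071 and Fcer1g 0.070 (LPS by CCM, WT) and Fcgr1 -0.034 (genotype by CCM). Fcer1g for CCM under LPS in KO was 0.0054 with no filter and 0.0029 with the block, and Fcgr3 for LPS by CCM in KO was -0.030 with DESeq2 and -0.031 with RLE factors. With libraries left out, sign changes gave these ranges. CCM in WT gave Fcgr1 -0.13 to 0.0037, Fcgr4 -0.12 to 0.036 and Fcgr2b -0.0053 to 0.33. CCM under LPS gave Fcgr3 -0.028 to 0.24 in WT and Fcer1g -0.083 to 0.083 in KO. LPS by CCM gave Fcgr3 -0.18 to 0.088 and Fcer1g -0.12 to 0.027 in WT, and Fcgr3 -0.027 to 0.046 in KO. KO against WT gave Fcgr1 -0.19 to 0.014 and Fcer1g -0.038 to 0.28 in vehicle, and Fcgr3 -0.0095 to 0.24, Fcgr2b -0.077 to 0.022 and Fcer1g -0.012 to 0.25 in LPS. Genotype by LPS gave Fcgr3 -0.13 to 0.16, Fcgr4 -0.25 to 0.00024 and Fcer1g -0.047 to 0.094, and genotype by CCM gave Fcgr1 -0.015 to 0.079 and Fcgr3 -0.066 to 0.013. Over all genes, calls for CCM in WT went from 8 to 247 with DESeq2, 377 with no filter and 255 with the block. CCM in KO went from 0 to 24 with DESeq2 and 429 with the block. CCM under LPS went from 1621 to 3220 with the block in WT, and in KO from 15 to 180 with DESeq2 and 777 with the block. LPS in KO went from 6433 to 9774 with the block. LPS by CCM went from 308 to 696, 721 and 548 in WT with DESeq2, no filter and the block, and from 1 to 12 with DESeq2, 81 with the block and 0 with no filter or totals alone in KO. Library totals alone moved the genes called higher from 4441 of 9139 to 2551 of 10611 (LPS, WT), from 3060 of 6433 to 1825 of 7533 (LPS, KO) and from 564 of 1621 to 1539 of 2272 (CCM under LPS, WT). Member counts were 740 or more in every library.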
